A study of Mus musculus with 8 samples.

Results

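The proteasome genes were taken as every symbol of the expression table that begins with Psma, Psmb, Psmc, Psmd, Psme or Psmf followed by a number, which gave 46 of the 24013 symbols. By the known place of their products these are 7 alpha subunits, 4 structural beta subunits and 3 constitutive catalytic beta subunits of the 20S core, 3 inducible catalytic subunits (Psmb8, Psmb9 and Psmb10), 6 ATPases and 11 other subunits of the 19S cap, 3 chaperones of 19S assembly, 6 genes of activators and an inhibitor, and 3 other matches. Of the 46, 44 reached 1 FPKM (fragments per kilobase of transcript, scaled to the mapped fragments of the library) in at least 2 of the 8 libraries and were tested. Psma8, a testis alpha subunit, had at most 0.0262 FPKM in any library, and Psmb11, the thymus catalytic subunit, at most 0.0658 FPKM. Psmc3ip met the symbol rule but encodes a meiotic recombination factor and is no subunit.

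The 20S core is a hollow barrel whose inner beta subunits cut proteins, and the 19S cap recognises ubiquitin-tagged proteins, unfolds them and feeds them into the barrel. Interferon induces Psmb8, Psmb9 and Psmb10, which take the places of Psmb5, Psmb6 and Psmb7 in newly built cores called immunoproteasomes, and also the PA28 alpha and beta activator. Immunoproteasomes produce many of the peptides that MHC class I molecules present, and in the gut they occur in immune cells and in epithelium exposed to interferon.

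Gene expression was measured by RNA-seq in sorted intestinal epithelial cells of Lyz1CreER; R26R-tdT mice of mixed C57/BL6 and 129 background, 8 to 14 weeks old, all given 1 tamoxifen dose of 10 mg. In these mice tamoxifen activates a Cre recombinase driven by Lyz1, a Paneth cell gene, and the tdTomato label then stays in the marked cells and in their descendants, so any cell with active Cre at that time is labelled. All groups were sorted as viable, CD45-, EpCAM+ and tdTomato+ cells, and they were irradiated CD24- cells (3 libraries, called derivative cells in the labels), irradiated CD24+ cells (3 libraries, called Paneth cells) and non-irradiated CD24+ cells (2 libraries). Irradiated mice were sampled 5 days after radiation, and non-irradiated CD24- cells were not analysed here. The labels do not say that the libraries of a group come from separate mice, so the p-values rest on the spread of these samples alone.

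The deposited FPKM summed to between 540467 and 582799 in irradiated CD24- libraries, against 1329221 to 1429911 in irradiated CD24+ and 1435059 to 1638347 in non-irradiated CD24+ libraries. Summed FPKM of 9 Paneth cell markers ran from 3660 to 23490 in irradiated CD24- libraries, from 297500 to 315700 in irradiated CD24+ and from 346900 to 412800 in non-irradiated CD24+ libraries. The sort gene Cd24a had 37.4 to 117 FPKM in CD24- libraries, below its 620.8 to 749.7 FPKM in the CD24+ libraries of both conditions. Non-irradiated replicate 1 stood apart, with 9362 genes at 1 FPKM or more against 10293 to 10697 in the other 7 libraries, so the comparisons with non-irradiated cells are also given without it. The library then left, replicate 2, differed in other ways. Its enterocyte markers summed to 2149 FPKM, against 438 to 1236 FPKM in the other CD24+ libraries. The interferon-induced gene Isg15 had 30.2 FPKM there, against 0.907 to 9.72 FPKM in the other CD24+ libraries. Over all 11190 genes tested the log2 fold change had a median of 0.51 for irradiated CD24- over irradiated CD24+ cells and of 0.32 for irradiated over non-irradiated CD24+ cells. Median-of-ratios scaling, which sets the typical gene of each library equal, moved these medians to -0.02 and -0.03, so both scales are given for the proteasome genes. Rescaling every library to the same FPKM total (TPM) moved the first to 1.58, and 43 of the 44 proteasome genes were then called higher in irradiated CD24- cells, where 90.3% of all genes were.

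As deposited, nearly every proteasome gene was higher in irradiated CD24- than in irradiated CD24+ cells, and the inducible catalytic subunits and PA28 alpha and beta differed most. In limma's test on log2(FPKM + 1), with Benjamini-Hochberg adjustment over all genes and a threshold of 0.05, 38 of 44 were higher and 0 were lower, where 48.6% of all genes were higher and 7.27% lower. Their median log2 fold change was 0.93, and in 42 of 44 all irradiated CD24- libraries lay above all irradiated CD24+ libraries, where 59.1% of all genes did so and 9.31% lay below. After median-of-ratios scaling 18 were higher and 2 lower, where 29.9% of all genes were higher and 27.7% lower, and the proteasome median was 0.31. Of the 38 genes other than Psmb8, Psmb9, Psmb10, Psme1, Psme2 and Psme2b, 12 were higher and 2 lower on that scale, with a median of 0.28. The share of higher genes among these 38 was near that of all genes. The counts moved with single libraries: without irradiated CD24+ replicate 1, 22 of the 44 were higher as deposited, where 39.0% of all genes were. On the median-of-ratios scale 11 were higher without that library (26.5% of all genes), 9 without irradiated CD24+ replicate 2 (25.4%) and 11 without irradiated CD24- replicate 2 (27.0%). In bulk samples a larger share of cells expressing a gene and more RNA per cell cannot be told apart.

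**Figure D1:**
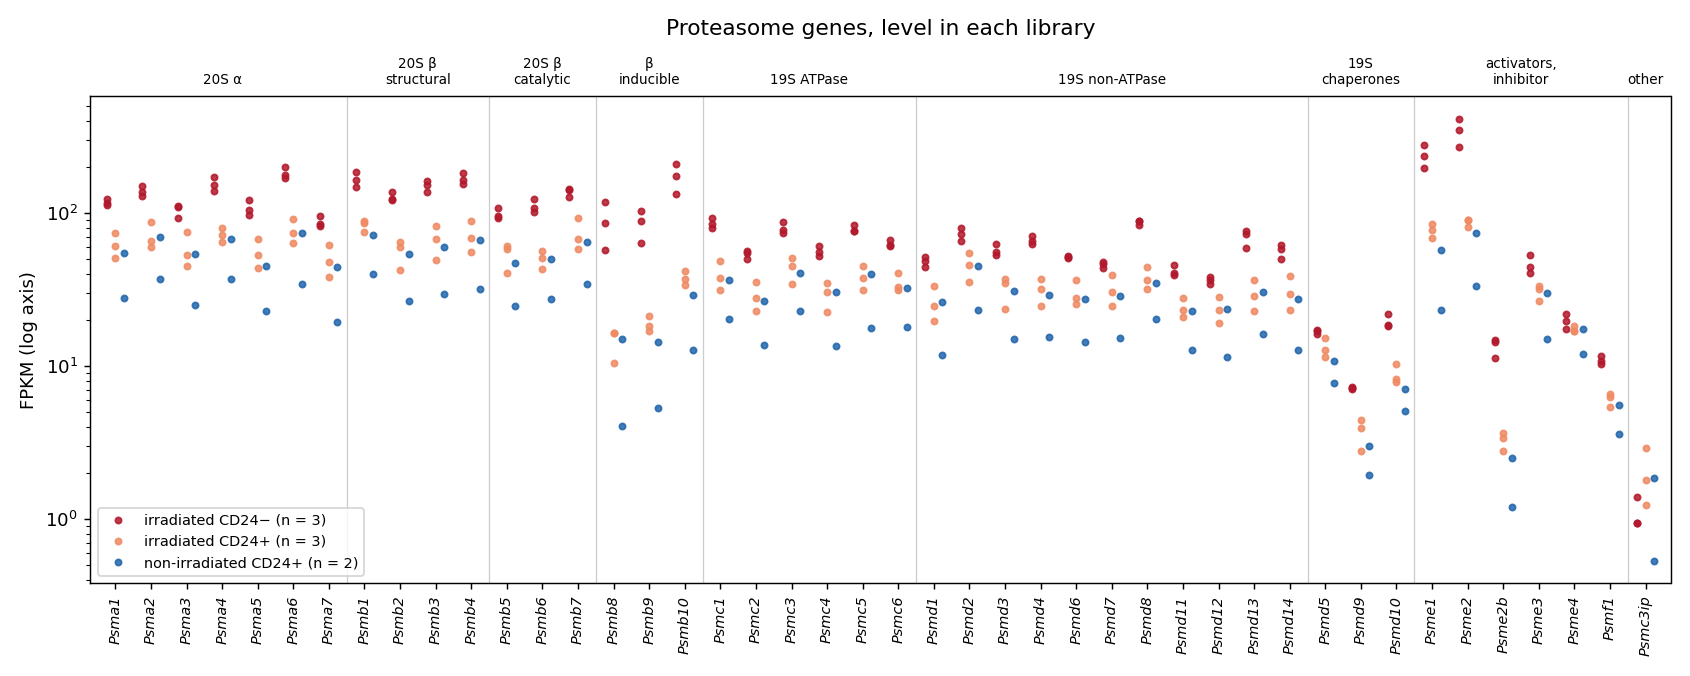
FPKM (log axis) of the 44 tested proteasome genes in each library, grouped by the known place of the product, with irradiated CD24−, irradiated CD24+ and non-irradiated CD24+ libraries from left to right within each gene. In 42 genes all 3 irradiated CD24− libraries lie above all 3 irradiated CD24+ libraries.

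Psmb8, the inducible beta5i subunit, had 86.0, 117 and 57.0 FPKM in irradiated CD24- replicates 1 to 3, against 16.3, 16.5 and 10.5 FPKM in irradiated CD24+ and 4.03 and 15.0 FPKM in non-irradiated CD24+ replicates. All CD24- libraries were above all CD24+ libraries, while the CD24+ libraries of both conditions overlapped. Its log2 fold change between irradiated CD24- and CD24+ cells was 2.47 ± 0.40 (SE, limma adjusted p = 0.000367), and the group means differed 6.0-fold.

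Psmb9, the beta1i subunit, had 88.2, 102.1 and 63.6 FPKM in irradiated CD24- replicates, against 18.4, 21.1 and 16.9 FPKM in irradiated CD24+ and 5.33 and 14.2 FPKM in non-irradiated CD24+ replicates. The 3 groups did not overlap. Irradiated CD24- cells exceeded irradiated CD24+ cells by a log2 fold change of 2.09 ± 0.31 (limma adjusted p = 0.000208). Psmb10, the beta2i subunit, was the most abundant inducible subunit, with 173.9, 209.8 and 133.7 FPKM in irradiated CD24-, against 33.7, 42.0 and 36.9 FPKM in irradiated CD24+ and 12.8 and 29.3 FPKM in non-irradiated CD24+ replicates. Its groups did not overlap either, and the log2 fold change between the irradiated groups was 2.15 ± 0.30 (limma adjusted p = 0.000142).

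The constitutive counterparts of these subunits moved less. Psmb5 (beta5) had 92.4, 108 and 94.8 FPKM in irradiated CD24-, against 40.7, 57.6 and 61.0 FPKM in irradiated CD24+ and 24.5 and 46.7 FPKM in non-irradiated CD24+ replicates. Psmb6 (beta1) had 102, 123 and 107 FPKM in irradiated CD24-, against 43.0, 50.9 and 56.4 FPKM in irradiated CD24+ and 27.3 and 50.2 FPKM in non-irradiated CD24+ replicates. Psmb7 (beta2) had 127, 144 and 141 FPKM in irradiated CD24-, against 58.5, 67.5 and 91.8 FPKM in irradiated CD24+ and 34.4 and 64.9 FPKM in non-irradiated CD24+ replicates. In each of these genes the CD24- libraries lay above every CD24+ library and the 2 CD24+ groups overlapped. The log2 fold changes of irradiated CD24- over irradiated CD24+ cells were 0.90 ± 0.27 for Psmb5, 1.13 ± 0.26 for Psmb6 and 0.93 ± 0.28 for Psmb7 (limma adjusted p = 0.016, 0.00318 and 0.0147). Of these 3 genes Psmb6 alone was called on the median-of-ratios scale (0.50 ± 0.13, limma adjusted p = 0.0126), while all 3 inducible subunits were, with log2 fold changes of 1.85 for Psmb8, 1.47 for Psmb9 and 1.52 for Psmb10. The inducible subunits stayed called on both scales whichever library was left out. Psmb5 was not called as deposited without irradiated CD24- replicate 2 or irradiated CD24+ replicate 1 (limma adjusted p = 0.06 and 0.0836), and Psmb7 not without irradiated CD24+ replicate 1 or 2 (0.072 and 0.0548).

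A ratio within a library does not depend on the scaling between libraries. Psmb8, Psmb9 and Psmb10 together made up 52.0%, 53.4% and 42.5% of the summed FPKM of the 6 catalytic subunits in irradiated CD24- replicates, against 32.5%, 31.1% and 23.5% in irradiated CD24+ and 20.4% and 26.6% in non-irradiated CD24+ replicates. The group means were 49.3% ± 5.90 (SD, n = 3) in irradiated CD24-, 29.0% ± 4.82 (n = 3) in irradiated CD24+ and 23.5% ± 4.33 (n = 2) in non-irradiated CD24+ cells. Irradiated CD24- libraries lay above all CD24+ libraries, and the 2 CD24+ groups overlapped.

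The ratio of Psmb8 to Psmb5 was 0.931, 1.08 and 0.602 in irradiated CD24-, against 0.402, 0.286 and 0.173 in irradiated CD24+ and 0.165 and 0.32 in non-irradiated CD24+ replicates. Psmb9 to Psmb6 was 0.868, 0.831 and 0.593 in irradiated CD24-, against 0.427, 0.414 and 0.3 in irradiated CD24+ and 0.195 and 0.284 in non-irradiated CD24+ replicates. Psmb10 to Psmb7 was 1.37, 1.46 and 0.947 in irradiated CD24-, against 0.576, 0.622 and 0.402 in irradiated CD24+ and 0.371 and 0.451 in non-irradiated CD24+ replicates. For all 3 pairs the CD24- libraries were above every CD24+ library, and replicate 3 was the lowest irradiated library within each gate. Irradiated CD24- replicate 3 also had the most enterocyte marker FPKM, 33690 against 14970 and 20150 in replicates 1 and 2 of that gate. Its enteroendocrine markers summed to 3068 FPKM, against 285.5 and 957.8 FPKM, and its stem cell markers to 43.2 FPKM, against 391.7 and 282.4 FPKM. Goblet, Paneth and cycling marker sums were lowest in that library too. The part of these cell types in the ratio was not tested.

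**Figure D2:**
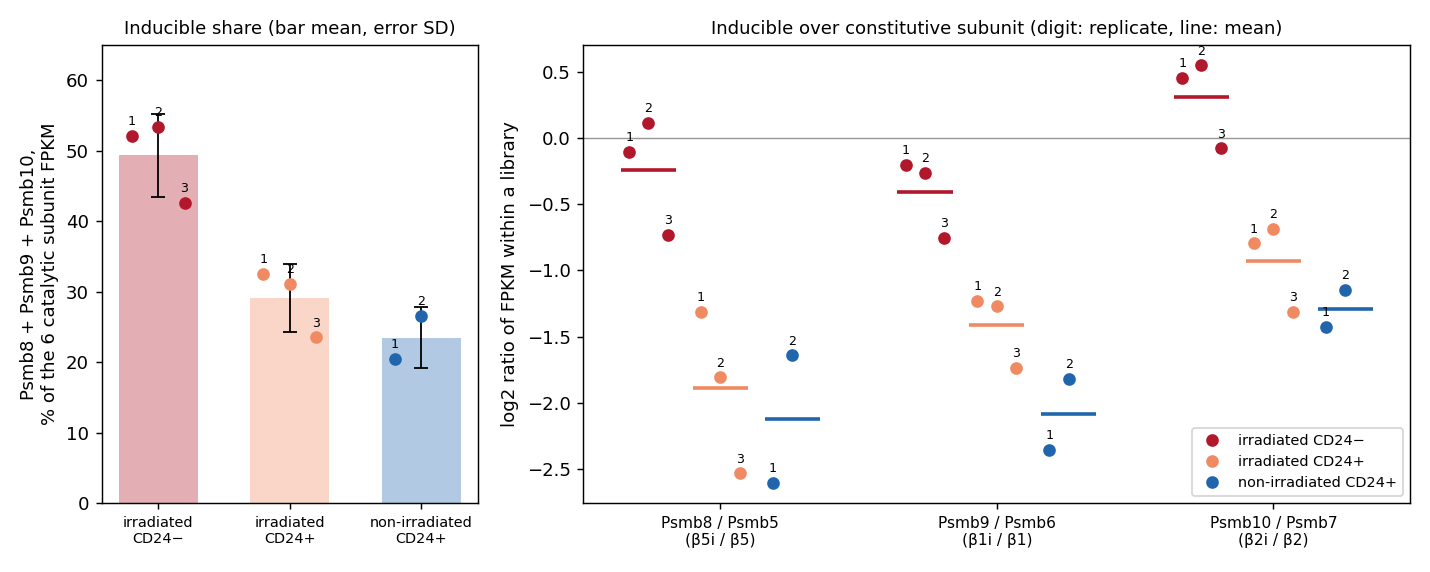
Left, share of the summed FPKM of the 6 catalytic subunits that came from Psmb8, Psmb9 and Psmb10 in each library (points, replicate number above; bars, group mean; error bars, SD). Right, log2 ratio of each inducible subunit to its constitutive counterpart within each library, with the group mean as a line; the irradiated CD24− points lie above all CD24+ points in all 3 pairs.

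Immune cells hold much inducible proteasome, so their markers are given beside these values. The table held 20 immune markers, of which 3 reached the filter and 1, Emr1 of macrophages, was at 0 in every library. Their summed FPKM was 6.16 to 18.2 in irradiated CD24-, 2.48 to 5.69 in irradiated CD24+ and 3.53 to 7.22 in non-irradiated CD24+ libraries. Ptprc, which encodes CD45, was at 0.0232 to 0.198 FPKM in irradiated CD24- libraries, against 0.0829 to 0.148 FPKM in irradiated CD24+ libraries, near 0 in both. It was highest in non-irradiated CD24+ libraries, at 0.289 and 0.539 FPKM, though below 1 FPKM there too. Gzma, a granzyme of cytotoxic lymphocytes and the highest of the list, had 8.74, 3.51 and 1.25 FPKM in irradiated CD24- replicates and 3.10, 0.744 and 1.24 FPKM in irradiated CD24+ replicates. Itgam, an integrin of myeloid cells, had 2.91, 2.70 and 2.39 FPKM in irradiated CD24- replicates and 0.574, 0.869 and 0.301 FPKM in irradiated CD24+ replicates, and it was the 1 immune marker called higher in irradiated CD24- cells by limma. Within irradiated CD24- cells the immune sum was 18.2, 9.75 and 6.16 FPKM in replicates 1 to 3. Psmb8, Psmb9 and Psmb10 were highest in replicate 2 and, like Gzma and the immune sum, lowest in replicate 3. The part of immune cells in the inducible subunit values was not tested.

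All 8 enterocyte markers were higher and all 9 Paneth cell markers lower in irradiated CD24- than in irradiated CD24+ cells by the same limma test. The shares of all genes were 48.6% higher and 7.27% lower. The summed enterocyte marker FPKM was 14970 to 33690 in irradiated CD24- libraries, against 717 to 1236 in irradiated CD24+ and 438 and 2149 in non-irradiated CD24+ libraries. The part of these cell types in the proteasome differences was not tested.

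Of the 14 constitutive 20S subunits all were called higher in irradiated CD24- than in irradiated CD24+ cells, where 48.6% of all genes were, with log2 fold changes from 0.85 (Psma7) to 1.25 (Psmb4) and a median of 0.98. These subunits form the rings of the barrel in fixed proportions. Psma6 (alpha1) had 168, 199 and 177 FPKM in irradiated CD24-, against 63.7, 74.3 and 91.6 FPKM in irradiated CD24+ and 34.1 and 74.2 FPKM in non-irradiated CD24+ replicates. Psma7 (alpha4) had the lowest mean level of the core in every group, with 84.8, 94.8 and 82.2 FPKM in irradiated CD24-, against 38.0, 47.4 and 61.4 FPKM in irradiated CD24+ and 19.4 and 44.4 FPKM in non-irradiated CD24+ replicates. In both genes the CD24- libraries lay above every CD24+ library. Psma7 was not called in limma with no filter on low genes (adjusted p = 0.0729), without irradiated CD24- replicate 1 or 2 (0.0688 and 0.0947) or without irradiated CD24+ replicate 1 or 2 (0.128 and 0.0813).

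Among structural beta subunits Psmb4 (beta7) had the largest fold, with 155, 182.5 and 164 FPKM in irradiated CD24-, against 55.6, 68.8 and 88.8 FPKM in irradiated CD24+ and 32.0 and 66.5 FPKM in non-irradiated CD24+ replicates. Psmb1 (beta6) had the smallest fold of its class, with 164, 185 and 148 FPKM in irradiated CD24-, against 74.7, 85.2 and 88.8 FPKM in irradiated CD24+ and 40.1 and 71.8 FPKM in non-irradiated CD24+ replicates. CD24- and CD24+ libraries did not overlap in either gene. Group means within the core spread little: they ran from 87.2 to 181.5 FPKM in irradiated CD24-, from 48.9 to 82.9 FPKM in irradiated CD24+ and from 31.9 to 56.0 FPKM in non-irradiated CD24+ cells. After median-of-ratios scaling, where 29.9% of all genes were higher, 7 of the 14 were still called higher, all 4 structural beta subunits among them, with a median log2 fold change of 0.35. As deposited 7 of the 14 were called without irradiated CD24+ replicate 1, where 39.0% of all genes were higher. The count was 10 without irradiated CD24- replicate 2, 11 without irradiated CD24+ replicate 2 and 13 or 14 without any other single irradiated library. On the median-of-ratios scale 3 were called without irradiated CD24+ replicate 1 (26.5% of all genes) and 2 without irradiated CD24+ replicate 2 (25.4%). Without irradiated CD24- replicate 2 that scale gave 4 (27.0%). These scaled counts lie near or below the shares of all genes.

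Of the 17 subunits of the 19S cap 15 were called higher in irradiated CD24- than in irradiated CD24+ cells, where 48.6% of all genes were, with a median log2 fold change of 0.89. All 6 ATPases, the ring that unfolds substrates, were among them, from 0.85 ± 0.24 for Psmc6 (Rpt4) to 1.12 ± 0.26 for Psmc1 (Rpt2). Psmc1 had 79.1, 84.5 and 92.5 FPKM in irradiated CD24-, against 31.6, 37.6 and 48.2 FPKM in irradiated CD24+ and 20.1 and 36.6 FPKM in non-irradiated CD24+ replicates. Psmc6 had 62.1, 66.5 and 60.8 FPKM in irradiated CD24-, against 32.8, 31.3 and 40.4 FPKM in irradiated CD24+ and 17.8 and 32.1 FPKM in non-irradiated CD24+ replicates. Both separated the CD24- libraries from all CD24+ libraries.

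Of the 11 other cap subunits, which include ubiquitin receptors, scaffolds and a deubiquitinase, 9 were called higher. Psmd13 (Rpn9) had the largest log2 fold change, 1.23 ± 0.27 (limma adjusted p = 0.00268), with 58.8, 72.5 and 76.1 FPKM in irradiated CD24-, against 22.7, 28.7 and 36.6 FPKM in irradiated CD24+ and 16.1 and 30.3 FPKM in non-irradiated CD24+ replicates. Psmd14 (Rpn11), the deubiquitinase, had 49.9, 58.5 and 62.0 FPKM in irradiated CD24-, against 23.3, 29.5 and 38.7 FPKM in irradiated CD24+ and 12.7 and 27.5 FPKM in non-irradiated CD24+ replicates. CD24- libraries exceeded CD24+ libraries in both genes. Psmd14 was not called in limma with no filter (adjusted p = 0.0534) or without irradiated CD24- replicate 2, irradiated CD24+ replicate 1 or irradiated CD24+ replicate 2 (0.0579, 0.0895 and 0.0563).

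Psmd7 (Rpn8), the partner of Psmd14, was not called, with 43.9, 46.2 and 48.0 FPKM in irradiated CD24-, against 24.8, 30.5 and 39.5 FPKM in irradiated CD24+ replicates. Psmd12 (Rpn5) was not called either, with 36.2, 34.2 and 38.0 FPKM in irradiated CD24-, against 19, 23.2 and 28.3 FPKM in irradiated CD24+ replicates. Their log2 fold changes were 0.55 ± 0.26 and 0.62 ± 0.26 (limma adjusted p = 0.0941 and 0.0656), although the irradiated groups did not overlap in either gene. Same-numbered irradiated libraries deviated together, and with the replicate number as a block in the 6 irradiated libraries both were called (limma adjusted p = 0.00804 for Psmd7 and 0.00402 for Psmd12). Without either non-irradiated library both were called too (limma adjusted p up to 0.0217 and 0.00849). After median-of-ratios scaling 4 of the 17 cap subunits were called higher, Psmc1, Psmd4, Psmd8 and Psmd13, a share below the 29.9% of all genes, with a median of 0.27, and Psmd7 was at -0.07 and Psmd12 at 0.0036. Without irradiated CD24+ replicate 1 the cap held 6 called as deposited (3 ATPases and 3 others), a share below the 39.0% of all genes. The cap held 9 without irradiated CD24+ replicate 2 and 10 without irradiated CD24- replicate 2. On the median-of-ratios scale 1 was called without any single one of these 3 libraries or without irradiated CD24- replicate 3. Without these 3 libraries in turn 26.5%, 25.4% and 27.0% of all genes were higher on that scale, so the cap lay below those shares.

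Among chaperones of 19S assembly, Psmd10 (gankyrin in human) had 18.6, 21.9 and 18.2 FPKM in irradiated CD24-, against 7.91, 8.20 and 10.3 FPKM in irradiated CD24+ and 5.08 and 7.06 FPKM in non-irradiated CD24+ replicates. Psmd9 had 7.16, 7.07 and 7.30 FPKM in irradiated CD24-, against 2.77, 3.94 and 4.44 FPKM in irradiated CD24+ and 1.95 and 3.02 FPKM in non-irradiated CD24+ replicates. Both were called higher in irradiated CD24- than in irradiated CD24+ cells, by log2 fold changes of 1.07 ± 0.19 and 0.81 ± 0.20 (limma adjusted p = 0.000746 and 0.00451). Psmd5 was not called, with 17.0, 17.3 and 16.3 FPKM in irradiated CD24-, against 11.4, 12.8 and 15.3 FPKM in irradiated CD24+ replicates. Its log2 fold change was 0.34 ± 0.19 (limma adjusted p = 0.154, and 0.0479 or 0.0476 without non-irradiated replicate 1 or 2), and median-of-ratios scaling put it at -0.25.

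**Figure D3:**
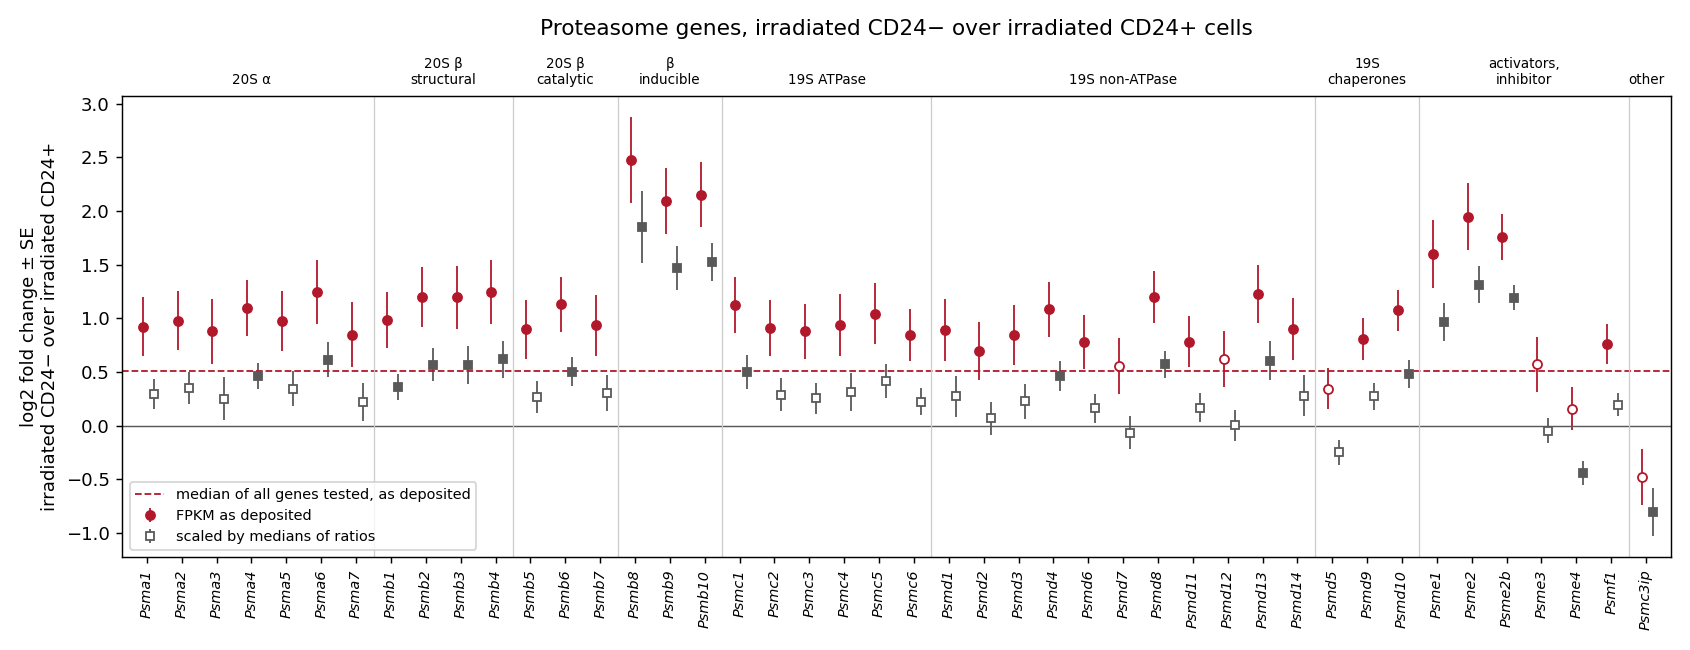
Log2 fold change (± SE) of each tested proteasome gene in irradiated CD24− over irradiated CD24+ cells, from FPKM as deposited (red circles) and after median-of-ratios scaling (grey squares), with filled symbols at adjusted p under 0.05. Psmb8, Psmb9, Psmb10, Psme1, Psme2 and Psme2b stand highest on both scales, and the dashed line is the median of all genes as deposited, 0.51.

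Among the activators PA28 alpha and beta rose with the inducible subunits, while PA28 gamma and PA200 did not pass the test. PA28 alpha and beta, encoded by Psme1 and Psme2, form a ring that opens the core for peptides. Psme1 had 236, 279 and 196 FPKM in irradiated CD24-, against 69.0, 84.2 and 77.7 FPKM in irradiated CD24+ and 23.1 and 57.0 FPKM in non-irradiated CD24+ replicates. Psme2 had 348, 412.5 and 268 FPKM in irradiated CD24-, against 81.0, 89.7 and 89.9 FPKM in irradiated CD24+ and 33.2 and 73.6 FPKM in non-irradiated CD24+ replicates, and it had the highest mean of the 46 genes in both irradiated groups. Neither gene overlapped between any 2 of the groups. Irradiated CD24- cells exceeded irradiated CD24+ cells by log2 fold changes of 1.60 ± 0.32 for Psme1 and 1.95 ± 0.31 for Psme2 (limma adjusted p = 0.00135 and 0.00033), and by 0.97 and 1.31 after median-of-ratios scaling. Psme2b, a near copy of Psme2, tracked it at 0.0342 to 0.0426 of the Psme2 level in all 8 libraries. Whether reads were shared between the copies was not tested, so its own level is uncertain.

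Psme3, which encodes the nuclear PA28 gamma activator, had 52.9, 44.2 and 40.7 FPKM in irradiated CD24-, against 26.6, 31.8 and 33.4 FPKM in irradiated CD24+ and 14.9 and 30.0 FPKM in non-irradiated CD24+ replicates. Psme4, which encodes the PA200 activator, had 21.8, 17.3 and 19.7 FPKM in irradiated CD24-, against 17.0, 16.9 and 18.4 FPKM in irradiated CD24+ and 11.9 and 17.6 FPKM in non-irradiated CD24+ replicates. Psme4 overlapped between the irradiated groups and Psme3 did not. Neither was called as deposited (log2 fold changes of 0.57 ± 0.26 and 0.16 ± 0.20, limma adjusted p = 0.0837 and 0.524). With the replicate block in the 6 irradiated libraries Psme3 was called higher (limma adjusted p = 0.0102), as it was without either non-irradiated library (up to 0.00945). After median-of-ratios scaling Psme4 was called lower in irradiated CD24- cells (-0.44 ± 0.11, limma adjusted p = 0.00926) and Psme3 was at -0.05.

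Psmf1, which encodes the inhibitor PI31, had 10.4, 10.8 and 11.7 FPKM in irradiated CD24-, against 5.41, 6.23 and 6.53 FPKM in irradiated CD24+ and 3.62 and 5.59 FPKM in non-irradiated CD24+ replicates. The CD24- libraries lay above all CD24+ libraries, with a log2 fold change between the irradiated groups of 0.76 ± 0.19 (limma adjusted p = 0.0051), and 0.19 without a call after median-of-ratios scaling. Psmc3ip, the recombination factor, had 1.39, 0.944 and 0.946 FPKM in irradiated CD24-, against 1.23, 1.81 and 2.93 FPKM in irradiated CD24+ replicates. It was the lowest tested gene of the symbol rule and was called lower only after median-of-ratios scaling (-0.81 ± 0.23, limma adjusted p = 0.0152).

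Levels were next set against the core itself, since the scale between libraries decides the sign of small differences. The geometric mean FPKM of the 11 subunits common to constitutive and inducible cores was 127, 145 and 127 in irradiated CD24-, against 52.2, 63.5 and 77.5 in irradiated CD24+ and 29.5 and 59.1 in non-irradiated CD24+ replicates. Psme1 stood at 1.86, 1.93 and 1.54 times this level in irradiated CD24-, against 1.32, 1.33 and 1.0 times in irradiated CD24+ and 0.785 and 0.964 times in non-irradiated CD24+ replicates. Psme2 stood at 2.73, 2.85 and 2.1 times in irradiated CD24-, against 1.55, 1.41 and 1.16 times in irradiated CD24+ and 1.12 and 1.25 times in non-irradiated CD24+ replicates. Both were above every CD24+ library in all irradiated CD24- libraries.

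Psme4 lay in the other direction, at 0.171, 0.12 and 0.155 times the core level in irradiated CD24-, against 0.326, 0.266 and 0.237 times in irradiated CD24+ and 0.404 and 0.297 times in non-irradiated CD24+ replicates. Psme3 was at 0.416, 0.305 and 0.32 times in irradiated CD24-, against 0.508, 0.501 and 0.43 times in irradiated CD24+ and 0.507 and 0.508 times in non-irradiated CD24+ replicates. Each CD24- library was below every CD24+ library for both genes. The geometric mean of the 17 cap subunits was 0.446, 0.412 and 0.496 times that of the core in irradiated CD24-, against 0.493, 0.496 and 0.499 times in irradiated CD24+ and 0.534 and 0.52 times in non-irradiated CD24+ replicates. The irradiated groups overlapped for the cap.

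With every library scaled to the common core subunits, limma called 6 of the 44 genes higher and 6 lower in irradiated CD24- than in irradiated CD24+ cells, where 15.2% of all genes were higher and 40.4% lower. This scale was chosen after the data had been seen, and it fixes the core near 0. The genes called higher were Psmb8 (1.43 ± 0.32, limma adjusted p = 0.00356), Psmb9 (1.05 ± 0.22, 0.00232), Psmb10 (1.10 ± 0.19, 0.000755), Psme1 (0.54 ± 0.18, 0.0251), Psme2 (0.89 ± 0.18, 0.00231) and Psme2b. The genes called lower were Psme3 (-0.46), Psme4 (-0.84), Psmd5 (-0.64), Psmd7 (-0.48), Psmd12 (-0.41) and Psmc3ip (-1.0). Leaving out each library in turn kept Psmb8, Psmb9, Psmb10 and Psme2 called on this scale, with the highest limma adjusted p at 0.0184 for Psmb8, while Psme1 reached 0.0881. Among the genes called lower, Psme4, Psmd5 and Psmc3ip stayed called in each case. Psme3 lost its call without irradiated CD24- replicate 2 or 3 or irradiated CD24+ replicate 1 or 2 (limma adjusted p = 0.0893 to 0.127), and Psmd7 without replicate 2 of either irradiated gate (0.061 and 0.0678). Psmd12 kept its call only when the library left out was non-irradiated or irradiated CD24- replicate 3.

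**Figure D4:**
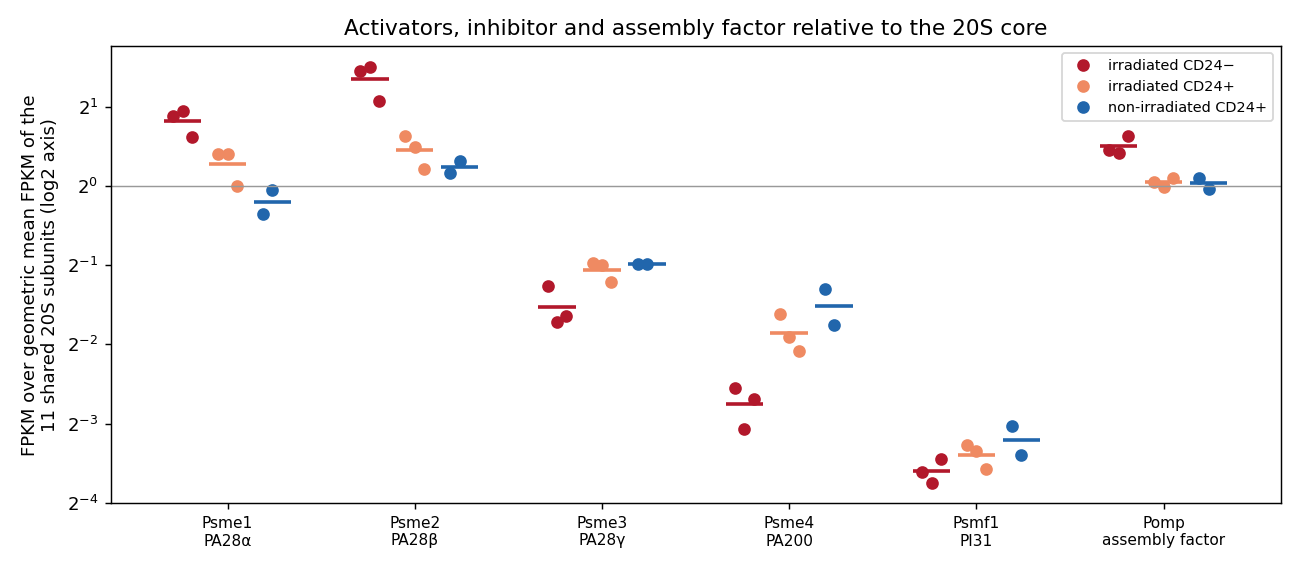
FPKM of each activator gene, of the inhibitor Psmf1 and of the assembly factor Pomp divided by the geometric mean FPKM of the 11 common 20S subunits in the same library (log2 axis; points, libraries; lines, group means). Psme1, Psme2 and Pomp are highest and Psme3 and Psme4 lowest in the 3 irradiated CD24− libraries.

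The effect of irradiation within the CD24+ gate was addressed by irradiated against non-irradiated CD24+ cells. No proteasome gene was called at an adjusted p under 0.05 by limma, where 0.0% of all genes were called, and 8 of 44 were higher at an unadjusted p under 0.05, where 12.2% of all genes were higher and 0.536% lower at that level. The median log2 fold change of the 44 genes was 0.52, beside 0.32 for all genes, and 0.08 beside -0.03 after median-of-ratios scaling. In 8 of 44 the 3 irradiated libraries lay above both non-irradiated ones, where 34.2% of all genes did so and 1.13% lay below both. Among these were Psmb9, Psmb10, Psme1 and Psme2, with log2 fold changes of 1.01 ± 0.35, 0.91 ± 0.34, 1.06 ± 0.35 and 0.80 ± 0.35 (limma adjusted p = 0.348 for each). These were 0.37, 0.34, 0.42 and 0.23 without non-irradiated replicate 1 (limma adjusted p = 1.0 each), and without non-irradiated replicate 2 they were 1.64, 1.48, 1.69 and 1.36 (0.0204 each). Psmb8 overlapped between the groups, with a log2 fold change of 0.76 ± 0.45 (limma adjusted p = 0.348).

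The constitutive core had a median log2 fold change of 0.59 in irradiated over non-irradiated CD24+ cells, from 0.42 (Psmb6) to 0.74 (Psma5), and the 19S cap a median of 0.49, from 0.37 (Psmd13) to 0.64 (Psmd14). Psma5 (alpha5) had 43.8, 53.2 and 67.2 FPKM in irradiated CD24+ replicates, against 22.7 and 44.7 FPKM in non-irradiated CD24+ replicates, with 1 irradiated library below the higher of the non-irradiated libraries. Psma2 (alpha2) had the smallest alpha subunit value, with 59.5, 65.8 and 87.2 FPKM in irradiated CD24+, against 36.8 and 69.2 FPKM in non-irradiated CD24+ replicates (log2 fold change 0.46 ± 0.31), and its groups overlapped too.

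Other classes stayed within a narrow span in irradiated over non-irradiated CD24+ cells. Among structural beta subunits the log2 fold change ran from 0.52 for Psmb2 (beta4), which had 42.4, 59.9 and 64.3 FPKM in irradiated CD24+ and 26.7 and 53.5 FPKM in non-irradiated CD24+ replicates, to 0.61 for Psmb1. Among ATPases it ran from 0.48 for Psmc5 (Rpt6), which had 31.4, 37.7 and 45.0 FPKM in irradiated CD24+ and 17.8 and 39.9 FPKM in non-irradiated CD24+ replicates, to 0.53 for Psmc2 (Rpt1). Psmb1 was the 1 core subunit whose irradiated CD24+ libraries all lay above both non-irradiated ones. Psmd5 and Psmd10 of the 19S chaperones did so too, with log2 fold changes of 0.48 each. The values for irradiation rest on which non-irradiated library is used. Without non-irradiated replicate 2 limma called all 44 higher, where 46.4% of all genes were higher, and without non-irradiated replicate 1 it called 0, where 0.0179% of all genes were higher, with Psmb6 at -0.01 and Psmb8 at -0.07. Without non-irradiated replicate 1 the median log2 fold change was 0.10 for the constitutive core and 0.07 for the cap, beside 0.07 for all genes. After median-of-ratios scaling no proteasome gene was called higher whichever library was left out, and with all libraries 0.0268% of all genes were called lower and 0.0% higher.

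Against non-irradiated CD24+ cells, 42 of 44 proteasome genes were called higher in irradiated CD24- cells by limma and 0 lower, where 65.7% of all genes were higher and 4.99% lower. In 42 all CD24- libraries lay above both non-irradiated ones, where 70.1% of all genes did so and 6.17% lay below. Irradiation and gate differ together here, and the comparison shares its libraries with the others. The log2 fold changes were 3.23 ± 0.45 for Psmb8, 3.10 ± 0.35 for Psmb9 and 3.06 ± 0.34 for Psmb10, and 2.66 ± 0.35 for Psme1 and 2.75 ± 0.35 for Psme2 (limma adjusted p = 0.000107, 3.33e-05, 2.98e-05, 8.6e-05 and 6.37e-05). Without non-irradiated replicate 1 they were 2.40, 2.46, 2.49, 2.02 and 2.18, and without non-irradiated replicate 2 they were 4.07, 3.73, 3.63, 3.29 and 3.31, all called in limma (adjusted p up to 0.00141). The constitutive core had a median of 1.58, from 1.44 (Psma2) to 1.83 (Psmb4), and the cap a median of 1.40, from 1.09 (Psmd12) to 1.66 (Psmd8). These medians were 1.15 and 0.95 without non-irradiated replicate 1, beside 0.62 for all genes, and 42 of the 44 were still called, where 49.5% of all genes were higher. Psmd8 (Rpn12) had 83.7, 88.0 and 88.5 FPKM in irradiated CD24- replicates, against 31.7, 36.6 and 44.5 FPKM in irradiated CD24+ and 20.4 and 35.1 FPKM in non-irradiated CD24+ replicates, with no overlap of CD24- and CD24+ libraries. Psme4 (0.41 ± 0.22, limma adjusted p = 0.121) and Psmc3ip (-0.01 ± 0.29, 0.977) were not called, although Psme4 was without non-irradiated replicate 2 (0.67, limma adjusted p = 0.00755). After median-of-ratios scaling 19 were higher and 1 lower, where 27.5% of all genes were higher and 25.0% lower, and the lower one was Psme4 (-0.63 ± 0.12, limma adjusted p = 0.00331). Without non-irradiated replicate 1 that scale gave 7 higher and 2 lower, where 21.1% of all genes were higher and 18.0% lower.

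Proteasome partners outside the symbol rule were described from a list of 17 symbols, of which 14 were in the table and tested. Against irradiated CD24+ cells, irradiated CD24- cells had 7 of these called higher and 0 lower (median log2 fold change 0.58), and 2 higher and 5 lower after median-of-ratios scaling. As deposited the share was near the 48.6% of all genes called higher, and after scaling 29.9% of all genes were higher and 27.7% lower. Without irradiated CD24+ replicate 1 the count as deposited was 4, where 39.0% of all genes were higher. Pomp, the factor that completes core assembly and favours immunoproteasomes in mammals, had 174, 193 and 198 FPKM in irradiated CD24-, against 54.1, 63.1 and 83.2 FPKM in irradiated CD24+ and 31.7 and 57.8 FPKM in non-irradiated CD24+ replicates. The CD24- libraries lay above all CD24+ libraries, and it was called on both scales (1.5 ± 0.27 as deposited and 0.87 ± 0.16 scaled, limma adjusted p = 0.000795 and 0.00237). The chaperones that build the alpha ring did not share this: Psmg2 had 14.2, 13.1 and 10.1 FPKM in irradiated CD24-, against 13.3, 15.9 and 14.5 FPKM in irradiated CD24+ replicates. After scaling Psmg1, Psmg2, Psmg3 and Psmg4 were all called lower (-0.40, -0.81, -0.37 and -0.50), and none of them was called as deposited. Psmg2 stayed called lower on that scale whichever library was left out. Psmg1 and Psmg4 lost the call without any single irradiated library except CD24- replicate 2, and Psmg3 likewise except CD24- replicate 2 and CD24+ replicate 1, with limma adjusted p up to 0.128.

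Adrm1, the ubiquitin receptor Rpn13 of the cap, had 37.2, 40.3 and 45.7 FPKM in irradiated CD24-, against 16.6, 22.9 and 24.2 FPKM in irradiated CD24+ and 10.4 and 21.7 FPKM in non-irradiated CD24+ replicates. Its groups separated CD24- from CD24+, with a log2 fold change between the irradiated groups of 0.94 ± 0.27 (limma adjusted p = 0.0115), and 0.32 without a call after scaling. Without irradiated CD24+ replicate 1 the adjusted p as deposited was 0.0559 in limma. Zfand5, a proteasome activator of atrophying muscle, had 14.6, 15.1 and 12.7 FPKM in irradiated CD24-, against 6.07, 5.87 and 6.77 FPKM in irradiated CD24+ replicates, without overlap. It was higher on both scales (1.06 ± 0.19 and 0.48 ± 0.10, limma adjusted p = 0.000787 and 0.00448). Ube3c, a cap-bound ubiquitin ligase, was higher as deposited (0.77 ± 0.20, limma adjusted p = 0.00636), with 19.1, 18.7 and 15.6 FPKM in irradiated CD24-, against 9.78, 9.95 and 10.2 FPKM in irradiated CD24+ replicates. In irradiated over non-irradiated CD24+ cells the smallest p of the list were those of Shfm1, the small cap subunit Sem1 under an older symbol, Usp14, a cap-bound deubiquitinase, and Akirin2, which carries proteasomes into the nucleus in human cells. Their log2 fold changes were 0.76, 0.61 and 0.49 (limma adjusted p = 0.348 each).

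Of 10 tested genes for transcription of proteasome genes, 6 were higher and 0 lower between irradiated CD24- and irradiated CD24+ cells (median log2 fold change 0.59), where 48.6% of all genes were higher, and 4 higher and 1 lower after scaling, where 29.9% were higher and 27.7% lower. The counts of higher genes lie near those shares. Without any single irradiated CD24+ library 4 were called as deposited, where 39.0% of all genes were higher without replicate 1. Nfe2l1, the factor that restores proteasome genes when proteasomes are inhibited, had 27.2, 19.5 and 21.2 FPKM in irradiated CD24-, against 13.6, 14.2 and 14.2 FPKM in irradiated CD24+ and 9.61 and 14.2 FPKM in non-irradiated CD24+ replicates. CD24- libraries were above all CD24+ libraries, but the log2 fold change of 0.64 ± 0.21 (limma adjusted p = 0.0207) became 0.04 after scaling. As deposited it lost its call without irradiated CD24- replicate 1 (limma adjusted p = 0.103) and without any single irradiated CD24+ library (0.0585 to 0.0742). Ddi2, the protease that activates the Nfe2l1 protein, and its relative Nfe2l2, the antioxidant response factor, were higher on both scales. Ddi2 had 38.4, 29.9 and 30.0 FPKM in irradiated CD24-, against 12, 12 and 9.95 FPKM in irradiated CD24+ replicates (log2 fold change 1.45 ± 0.20, limma adjusted p = 0.000129). Nfe2l2 had 133, 126 and 119.5 FPKM in irradiated CD24-, against 31.0, 31.8 and 27.2 FPKM in irradiated CD24+ replicates (2.04 ± 0.24, limma adjusted p = 4.34e-05). Neither overlapped. Maf, a leucine zipper factor, had 16.3, 22 and 22.5 FPKM in irradiated CD24-, against 0.992, 0.865 and 0.8 FPKM in irradiated CD24+ and 0.953 and 2.74 FPKM in non-irradiated CD24+ replicates (log2 fold change between the irradiated groups 3.48 ± 0.24, limma adjusted p = 5.58e-06). Its CD24- libraries stood far above all others.

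Ubiquitin delivery and unfolding genes stayed nearer to all genes. Of 15 tested, 9 were higher and 0 lower between irradiated CD24- and irradiated CD24+ cells, with a median log2 fold change of 0.60 beside 0.51 for all genes, and 1 higher and 2 lower after scaling. Of all genes 48.6% were higher as deposited, and 29.9% higher and 27.7% lower after scaling. The count of 9 fell to 1 without irradiated CD24+ replicate 1, where 39.0% of all genes were higher. It fell to 2 without replicate 3 of that gate, and to 3 without replicate 2 of that gate or without irradiated CD24- replicate 1 or 2. Bag6, a chaperone for misdirected proteins, had 33.1, 28.1 and 31.0 FPKM in irradiated CD24-, against 13.9, 17.6 and 16.5 FPKM in irradiated CD24+ replicates, and was the 1 higher on both scales (0.90 ± 0.24 and 0.29 ± 0.11, limma adjusted p = 0.00691 and 0.042). The scaled call was lost without irradiated CD24- replicate 1 or 3 or any single irradiated CD24+ library (limma adjusted p = 0.073 to 0.132). Ubb, a polyubiquitin gene, had 891, 1035 and 1303 FPKM in irradiated CD24-, against 465, 558 and 530.0 FPKM in irradiated CD24+ replicates. Ufd1l, a cofactor of the unfoldase Vcp, had 16.8, 16.8 and 21 FPKM in irradiated CD24-, against 8.24, 10.3 and 11.8 FPKM in irradiated CD24+ replicates. Neither overlapped, and both were called as deposited (limma adjusted p = 0.0145 and 0.0163) and not after scaling. Without irradiated CD24+ replicate 1 both lost the call (limma adjusted p = 0.079 and 0.0742), Ubb also without replicate 3 of that gate (0.056).

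Most interferon and class I antigen processing genes were higher with the inducible subunits. Of 22 tested, 19 were higher and 0 lower between irradiated CD24- and irradiated CD24+ cells, with a median log2 fold change of 1.94, and 15 higher and 0 lower with a median of 1.31 after scaling. Of all genes 48.6% were higher as deposited and 29.9% after scaling. The count as deposited was 19 or 20 whichever library was left out, and the scaled count was 9 without irradiated CD24- replicate 2 or irradiated CD24+ replicate 1. Without those libraries in turn 27.0% and 26.5% of all genes were higher after scaling. Gbp2 overlapped between the irradiated groups, with 0.791, 0.831 and 1.15 FPKM in irradiated CD24-, against 0.923, 0.228 and 2.35 FPKM in irradiated CD24+ replicates. Ifng, which encodes interferon gamma, had at most 0.0197 FPKM in any library and was not tested. Tap1, which carries peptides into the endoplasmic reticulum, had 29.4, 35.8 and 33.7 FPKM in irradiated CD24-, against 5.98, 7.10 and 8.02 FPKM in irradiated CD24+ and 1.69 and 9.71 FPKM in non-irradiated CD24+ replicates. The CD24- libraries were above all others (2.08 ± 0.39 between the irradiated groups, limma adjusted p = 0.000952). In RefSeq's GRCm38.p6 annotation Tap1 lies between Psmb9 and Psmb8 on chromosome 17, and Tap2 follows Psmb8.

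Irf1, a transcription factor that drives the inducible subunits, had 62.4, 62.3 and 53.3 FPKM in irradiated CD24-, against 16.8, 17.8 and 17.2 FPKM in irradiated CD24+ and 6.56 and 12.5 FPKM in non-irradiated CD24+ replicates. The 3 groups did not overlap, and the log2 fold change between the irradiated groups was 1.72 ± 0.23 (limma adjusted p = 0.000107). Ifngr1 and Ifngr2, the interferon gamma receptor chains, were higher by 1.69 ± 0.23 and 2.23 ± 0.24 (limma adjusted p = 0.000126 and 2.39e-05). Ifngr2 had 111, 115 and 101 FPKM in irradiated CD24-, against 24.2, 23.4 and 19.9 FPKM in irradiated CD24+ and 11.3 and 20.3 FPKM in non-irradiated CD24+ replicates. B2m, the light chain of class I molecules, had 1670.0, 2178 and 1904 FPKM in irradiated CD24-, against 379, 380 and 313 FPKM in irradiated CD24+ and 164 and 356 FPKM in non-irradiated CD24+ replicates (2.42 ± 0.35 between the irradiated groups, limma adjusted p = 0.000172). Both separated CD24- from all CD24+ libraries.

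Isg15, an interferon-induced ubiquitin-like protein, varied more between libraries, with 46.5, 107 and 166.6 FPKM in irradiated CD24-, against 4.31, 9.31 and 9.72 FPKM in irradiated CD24+ and 0.907 and 30.2 FPKM in non-irradiated CD24+ replicates. Its log2 fold change between the irradiated groups was 3.51 ± 0.81 (limma adjusted p = 0.00357), and 2.90 after scaling (0.0214), where it lost its call without irradiated CD24- replicate 2 or 3 or irradiated CD24+ replicate 1 (0.0615 to 0.0668). Genes of the list differed in their order within irradiated CD24- cells. Isg15, Tap1 and B2m were lowest in replicate 1, while Irf1, Ifngr1 and Ifngr2 were lowest in replicate 3, as were Psmb8, Psmb9 and Psmb10. Whether the subunits followed any of these genes across libraries was not tested. Nlrc5, the class I transactivator, did not reach the filter, with 0.248, 0.131 and 0.499 FPKM in irradiated CD24-, against 0.213, 0.226 and 0.224 FPKM in irradiated CD24+ replicates. In irradiated over non-irradiated CD24+ cells none of the genes of these 4 lists was called by limma, and at an unadjusted p under 0.05 there were 3 partners, 1 transcription gene (Nfe2l2, 0.65), 0 ubiquitin genes (smallest p for Ubqln2, Uba6 and Bag6) and 3 interferon genes (Irf1 with 0.85, Ifngr1 with 0.67 and Erap1, a peptide trimming enzyme, with 0.67). At that level 12.2% of all genes were higher, and these counts rest on few genes. Without non-irradiated replicate 1 Irf1, Ifngr1 and Erap1 were at 0.43, 0.28 and 0.33, the interferon list had a median of -0.23, and limma called none of the 4 lists. Without non-irradiated replicate 2 it called 14 partners, 1 transcription gene, 11 ubiquitin genes and 19 interferon genes higher, where 46.4% of all genes were.

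Against non-irradiated CD24+ cells, 11 of 14 partners, 7 of 10 transcription genes, 13 of 15 ubiquitin genes and 21 of 22 interferon genes were higher in irradiated CD24- cells in limma, and 0 of each list lower, where 65.7% of all genes were higher and 4.99% lower. The counts were 8, 6, 7 and 12 without non-irradiated replicate 1, where 49.5% of all genes were higher. Named by their p, these were Zfand5 (1.53), Pomp (2.11) and Akirin2 (1.15), then Maf (2.96), Nfe2l2 (2.68) and Ddi2 (1.74), then Bag6 (1.42), Ubqln1 (1.12) and Uba6 (0.85), and Ifngr2 (2.77), Irf1 (2.57) and Ifngr1 (2.36). After scaling 3, 3, 1 and 12 of the lists were higher and 2, 2, 2 and 0 lower, where 27.5% of all genes were higher and 25.0% lower. Without non-irradiated replicate 1 the values of the 12 genes named here were lower, from 0.61 for Uba6 to 2.49 for Maf, and each was called in limma (adjusted p up to 0.017).

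**Figure D5:**
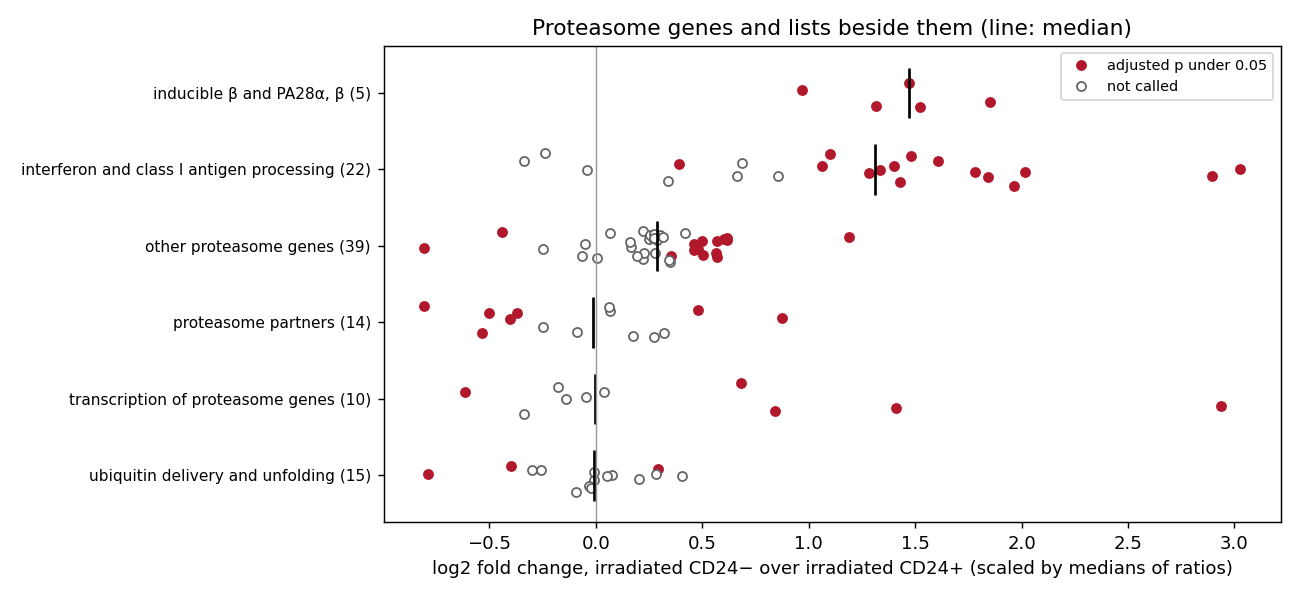
Log2 fold changes after median-of-ratios scaling in irradiated CD24− over irradiated CD24+ cells for the inducible subunits with PA28 alpha and beta, for the other proteasome genes and for the 4 lists beside them (number of genes in brackets; line, median; filled, adjusted p under 0.05). The inducible subunits and the interferon list have their medians well above 0, while the partner, transcription and ubiquitin lists have medians near 0.

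The promoters of members that moved by different amounts were read from RefSeq's table of the GRCm38.p6 build, from 250 bases before to 50 after each start, which held 39 of the 46 genes. The authors mapped to another build, mm9, so no value of theirs is tied to these coordinates. The sequences shown are the stretches before the start that lie outside annotated exons, 5′ to 3′ on the gene's strand, for a pair of constitutive subunits (Psmb5 at chr14:54618023-54618245, minus strand, and Psmb6 at chr11:70525107-70525356, plus strand), an inducible subunit (Psmb10 at chr8:105938445-105938642, minus strand) and an activator (Psme2 at chr14:55591114-55591351, minus strand). Capitals mark a match to TGACNNNGC, the element bound by factors such as Nfe2l1 and Nfe2l2.
Psmb5: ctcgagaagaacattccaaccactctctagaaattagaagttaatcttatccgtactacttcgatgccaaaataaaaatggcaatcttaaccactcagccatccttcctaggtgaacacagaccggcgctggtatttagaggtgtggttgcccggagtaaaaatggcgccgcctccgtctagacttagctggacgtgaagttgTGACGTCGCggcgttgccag
Psmb6: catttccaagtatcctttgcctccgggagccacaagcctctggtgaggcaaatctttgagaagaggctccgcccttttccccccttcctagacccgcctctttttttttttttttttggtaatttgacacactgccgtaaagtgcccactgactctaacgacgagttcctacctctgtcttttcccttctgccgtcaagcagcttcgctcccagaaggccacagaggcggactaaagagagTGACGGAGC
Psmb10: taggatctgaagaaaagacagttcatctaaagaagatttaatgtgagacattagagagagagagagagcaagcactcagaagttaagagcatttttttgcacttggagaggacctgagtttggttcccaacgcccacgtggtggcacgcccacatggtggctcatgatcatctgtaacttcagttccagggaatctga
Psme2: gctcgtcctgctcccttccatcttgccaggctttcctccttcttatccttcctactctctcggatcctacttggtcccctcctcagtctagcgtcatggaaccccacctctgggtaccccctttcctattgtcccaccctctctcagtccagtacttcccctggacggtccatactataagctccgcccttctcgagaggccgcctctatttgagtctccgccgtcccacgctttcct

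In Psmb5 the match starts 47 bases before the transcription start and in Psmb6 it starts 9 bases before. Each motif was searched on both strands, with overlapping matches allowed. TGACNNNGC occurred in 15.4% of the 39 promoters (6 genes: Psmb5, Psmb6, Psmc6, Psmd9, Psmd12 and Psme4), beside 14.0% of all 27025. The interferon-stimulated response element occurred in 10.3% (Psmb3, Psmd4, Psmd9 and Psme1), beside 3.99% of all. CCAAT occurred in 38.5% of the 39, beside 41.1% of all. None of these 3 motifs was found in the Psmb10 and Psme2 windows, and the letters of a window say nothing of which factor was bound in these cells.

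The library kit keeps no strand, so reads of overlapping genes on opposite strands cannot be told apart. In the GENCODE annotation 12 of the 46 genes share exon bases with a gene on the other strand, and 5 share over 10%: Psmb7 with Nek6 (11.8% of its exon bases), Psmb8 with Gm20496 (14.7%), Psmd9 with Gm26745 (25.5%), Psmd13 with Sirt3 (10.1%) and Psmc3ip with Mlx (21.2%). Psmb9 shares 5.79% with Tap1. Psmb10 and Psme2 share none.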

How the data were processed

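RNA of 8 libraries from sorted mouse cells in 3 groups was sequenced by the submitters with the TruSeq RNA v2 kit, per the labels' protocols. The deposited table holds 1 FPKM value for each gene in each library, made by the authors. TopHat2 2.1.0, StringTie 1.3.4 and mm9 are named in the submitters' processing notes; which annotation or filters were used is not given in these sources. The deposited FPKM come without read numbers, so depth is unknown and no counting interval is given, and FPKM are shares of a library, so very abundant transcripts lower all others. The table has 24015 entries, and 2 symbols listed more than once, none of them a proteasome gene, were summed.

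Genes with at least 1 FPKM in at least 2 libraries (11190) were transformed as log2(FPKM + 1), which understates changes of low genes. All 8 libraries were fitted together in limma 3.58.1 (R 4.3.3; lmFit and eBayes with a mean-variance trend) with Benjamini-Hochberg adjustment, and the procedure was tested on simulated data. SE is limma's moderated standard error and SD the spread of libraries. Alternatives were a pseudocount of 0.1, no filter or one at 5 FPKM, median-of-ratios scaling, rescaling to TPM, only the groups compared, a replicate block, leaving out each library and, chosen after seeing the data, scaling to the 11 common 20S subunits. Residuals of same-numbered irradiated CD24- and CD24+ libraries correlated across genes (r = 0.366, 0.231 and 0.402), so replicate numbers were taken to pair the irradiated libraries in the replicate block. The main fit has no block, so its p-values and calls do not use this pairing.

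The genes, classes, lists and tests were chosen with earlier results of these data known. Named genes were the catalytic subunits, Psme1 to Psme4 and Psmf1, the highest and lowest fold of each other class per comparison, genes called against their class, 8 list genes in every case (1 of them, and 1 motif, not reported here) and the 3 smallest p of each list per comparison, and a few further genes were named after their values were seen. Figures were drawn with matplotlib 3.10.9.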

Additional observations from a re-analysis of the deposited data

How the results depend on the processing

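The scale between libraries decided most counts. For irradiated CD24- over irradiated CD24+ cells, median-of-ratios scaling gave 18 proteasome genes higher and 2 lower instead of 38 and 0, and for irradiated CD24- over non-irradiated CD24+ cells 19 and 1 instead of 42 and 0. A pseudocount of 0.1, either filter, TPM rescaling, the fit of only the groups compared and the replicate block kept these counts of higher genes within 1.5 times. With the block in the 6 irradiated libraries 41 were higher. The block called Psmd7 and Psme3 there and Psmd12 also in all 8 libraries. Whether non-irradiated libraries pair with the others by number is not known (r of same-numbered residuals from -0.0499 to 0.232).

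With median-of-ratios scaling the sign turned in irradiated over non-irradiated CD24+ cells for Psmb6 (-0.035), Psme4 (-0.19), Psmf1 (-0.033) and Psmd13 (-0.078), in irradiated CD24- over irradiated CD24+ cells for Psme3 (-0.050), Psme4 (-0.44), Psmd7 (-0.067) and Psmd5 (-0.25), and in irradiated CD24- over non-irradiated CD24+ cells for Psme4 (-0.63) and Psmd5 (-0.20). Psmc3ip, near 1 FPKM, turned to 0.27 under TPM rescaling in irradiated CD24- over irradiated CD24+ cells, and in irradiated CD24- over non-irradiated CD24+ cells to 0.075 with a pseudocount of 0.1 and 0.73 under TPM rescaling. The cause was not tested.

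Leaving out each library in turn, 22 to 42 genes were called higher in irradiated CD24- over irradiated CD24+ cells (9 to 24 after median-of-ratios scaling), 0 to 44 in irradiated over non-irradiated CD24+ cells, and 7 to 22 higher and 1 to 2 lower in irradiated CD24- over non-irradiated CD24+ cells after scaling. In irradiated over non-irradiated CD24+ cells the log2 fold change ranged from -0.0088 to 0.84 for Psmb6, from -0.074 to 1.59 for Psmb8 (-0.17 to 0.91 after median-of-ratios and -0.17 to 0.66 after core scaling), from -0.011 to 0.51 for Psme4, from -0.084 to 1.04 for Psmc5, from -0.069 to 0.80 for Psmd13 and from -0.020 to 0.96 for Psmd12, the lowest without non-irradiated replicate 1 and the highest without replicate 2. Psmc3ip in irradiated CD24- over non-irradiated CD24+ cells ranged from -0.46 to 0.44, with 0.04 without irradiated CD24- replicate 2 or 3. In irradiated CD24- over irradiated CD24+ cells Psmb8 ranged from 2.23 to 2.74, Psmb9 from 1.94 to 2.28 and Psmb10 from 2.0 to 2.32 and stayed called in each case. Where 1 library was left in a group, its spread was taken from the other groups. Leaving out libraries on either rescaled table, and the core scaling itself, were chosen after seeing the data. With 2 non-irradiated libraries that differ this much, the fit of all libraries as deposited called no gene for irradiation within CD24+ cells. Psme1 at a log2 fold change of 1.06 was not called, and the smallest effect that this comparison could detect was not determined.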
